A study of Mus musculus with 6 samples.

Results

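The genes of cholesterol and fatty acid synthesis described here were chosen by name: 40 symbols covering the enzymes of both pathways, the proteins that sense sterol, and the carriers that move cholesterol. A gene was measured where a probe set of the deposited table was annotated to its symbol alone, which held for 37 of the 40, among 19938 genes in all. For a gene with several probe sets the brightest over the 6 arrays was kept. Acat2, Acsl1 and Acsl3 were not analysed here.

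RNA of brain cells from C57BL/6J mice was hybridised to whole-transcript Affymetrix arrays. GFP+ cells, labelled cortical neural progenitors, and RFP+ cells, labelled as their differentiated neuronal progeny, had been parted by their fluorescent reporters in a cell sorter, with 3 arrays for either population. Cortex is named as the origin of the GFP+ cells only, the RFP+ cells being labelled as brain. The sources used here do not give the animals' age, the promoters driving the reporters or any pooling. Nothing says that the arrays of a group came from separate animals, so p-values measure the spread between these samples, which may be technical. The question here is how the lipid synthesis genes differ between progenitors and their neuronal progeny.

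Cells build cholesterol from acetyl-CoA through mevalonate, squalene and lanosterol, and build fatty acids from the same acetyl-CoA. In the endoplasmic reticulum the Scap protein escorts the SREBP transcription factors towards their activation when sterol is low, and Insig proteins hold Scap back when sterol is plentiful. The brain makes nearly all of its own cholesterol, because lipoproteins of the blood do not cross the blood-brain barrier, and its cells pass cholesterol on in particles that carry apolipoprotein E.

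Progenitor markers were higher in the GFP+ arrays for 9 of 9 genes and neuron markers were higher in the RFP+ arrays for 7 of 7, at an adjusted p under 0.05 (the threshold used throughout, limma with Benjamini-Hochberg adjustment over all 19938 genes). Beside them, 9 of 9 endothelial, 6 of 8 mural cell and 5 of 5 oligodendrocyte precursor markers were also higher in GFP+, and 0 of 8 microglia markers passed in either direction (0 of 8 had an unadjusted p under 0.05). Summed intensities per array were 1967.6 to 6552.6 in GFP+ against 650.2 to 940.3 in RFP+ for the endothelial markers, and 5648.3 to 7507.7 against 1082.6 to 1243.2 for the mural ones. The oligodendrocyte precursor sums were 1257.9 to 1892.6 in GFP+ and 197.8 to 221.6 in RFP+. Of 5 astrocyte markers, Aldh1l1 and Aqp4 were higher in GFP+, and the sums were 1820.7 to 2819.2 in GFP+ and 1389.2 to 1702.6 in RFP+. Of 3 erythroid markers measured, Klf1 was higher in GFP+. Of the markers that passed, Klf1, Aqp4 and Cspg4 lay under a background level in both groups, and the arrays of Aqp4 overlapped. That level was the 95th percentile over olfactory receptor genes, 211.3 in GFP+ and 206.3 in RFP+. No marker was listed at 0 on any array. The part of these cells in the results below was not tested, and in such bulk samples fewer cells of a type and less RNA per cell cannot be told apart.

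The genes that passed included 3 of the 4 sterol transport genes (75%), 3 of the 5 sensing genes (60%) and 6 of the 28 synthesis enzymes. Of all genes 30% passed. The enzymes lay under that share, with 20% of the mevalonate and sterol ones and 23.1% of the fatty acid ones. The other 22 enzymes did not pass. The groups of arrays did not overlap for 15 of the 28, among them the 6 that passed, and for 43.9% of all genes. Of the 37 genes, 9 were higher in GFP+ progenitors (24.3%, where 13.7% of all genes were) and 3 were higher in RFP+ neurons (8.11%, where 16.2% of all genes were). Together 32.4% passed, close to the 30% of all genes. With the replicate number as a block 17 passed, 13 higher in GFP+ and 4 higher in RFP+ (45.9%, against 36.9% of all genes). The groups of arrays did not overlap for 16 genes with GFP+ above (43.2%, against 19.9% of all genes) and 6 with RFP+ above (16.2%, against 24.1%), where 43.9% of all genes did not overlap in one direction or the other. The median difference in log2(intensity + 16), taken as GFP+ minus RFP+, was 0.28 over the 37 genes and -0.08 over all genes. Folds are given for the same quantity, so that those of dim genes come out too small, and standard errors (SE) come from limma with 3 arrays per group.

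**Figure D1:**
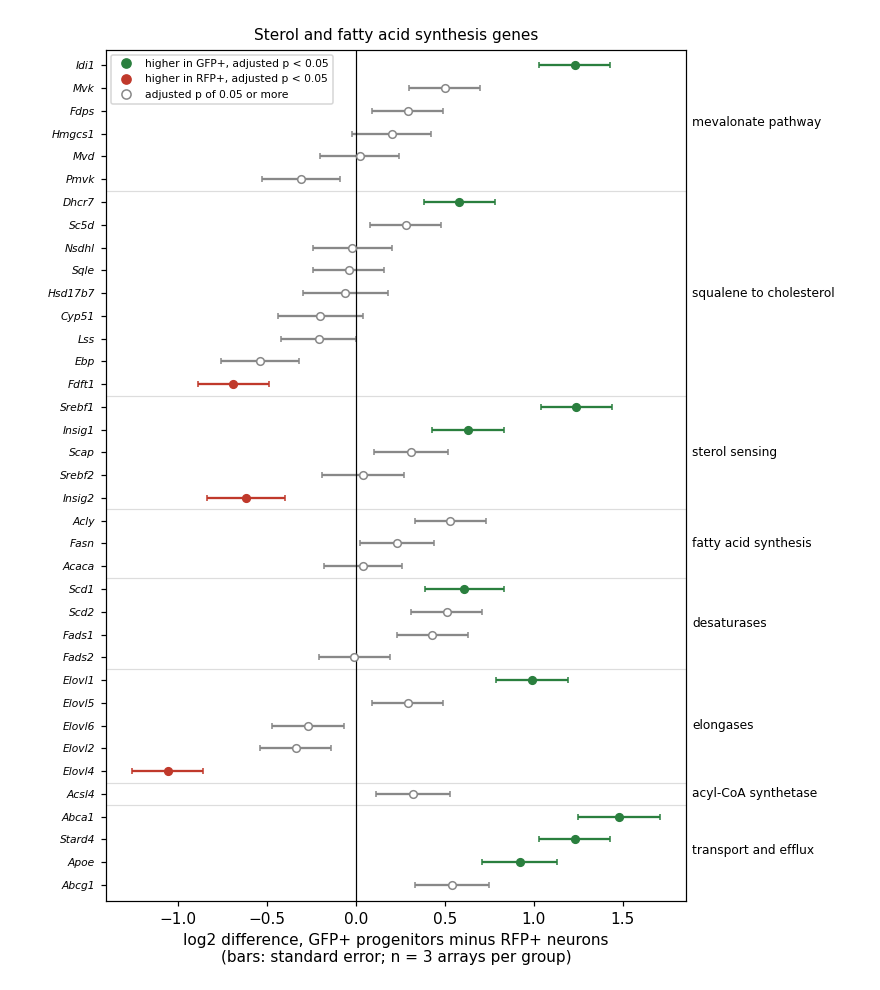
Log2 difference in intensity (GFP+ progenitors minus RFP+ neurons, horizontal axis) for each of the 37 measured genes, grouped by role, with bars for the standard error (3 arrays per group). Filled points passed an adjusted p of 0.05: 9 lie to the right of 0 and 3 to the left, and Abca1 (1.48) and Elovl4 (-1.06) mark the ends.

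The promoter stretches of 3 genes are shown as textbook targets of SREBP: Hmgcs1 and Idi1 from the mevalonate pathway, and Insig1 from sterol sensing. Of the motifs searched, Hmgcs1 held the sterol element and NF-Y boxes, Insig1 an E-box and an NF-Y box, and Idi1 NF-Y boxes only. Each is the 250 bases before the annotated start, on the plus strand of GRCm38.p6 (sequences from RefSeq), at chr13:119690101-119690350 for Hmgcs1, chr13:8885356-8885605 for Idi1 and chr5:28071162-28071411 for Insig1. Capitals mark matches on either strand to TCACNCCAC (a sterol regulatory element), CACGTG (an E-box, which some SREBPs also bind) and CCAAT (the NF-Y box, read as ATTGG on the other strand). The motifs did not overlap each other here.
Hmgcs1: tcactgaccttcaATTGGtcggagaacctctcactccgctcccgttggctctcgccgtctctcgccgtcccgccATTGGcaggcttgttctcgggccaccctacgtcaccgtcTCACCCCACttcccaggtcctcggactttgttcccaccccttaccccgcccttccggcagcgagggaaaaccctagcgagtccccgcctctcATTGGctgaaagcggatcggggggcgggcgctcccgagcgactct
Idi1: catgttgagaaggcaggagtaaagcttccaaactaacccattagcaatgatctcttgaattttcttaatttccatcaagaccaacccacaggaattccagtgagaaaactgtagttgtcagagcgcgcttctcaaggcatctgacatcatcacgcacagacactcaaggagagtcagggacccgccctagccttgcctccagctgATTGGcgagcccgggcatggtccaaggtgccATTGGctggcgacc
Insig1: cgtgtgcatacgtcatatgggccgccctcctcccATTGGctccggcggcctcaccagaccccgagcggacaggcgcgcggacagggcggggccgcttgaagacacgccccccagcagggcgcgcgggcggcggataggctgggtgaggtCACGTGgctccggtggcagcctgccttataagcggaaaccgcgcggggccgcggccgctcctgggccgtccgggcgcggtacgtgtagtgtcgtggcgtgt
Promoter entries were found for 29 of the 37 genes, 41 entries in all. The sterol regulatory element lay in 1 of the 41 (2.44%, Hmgcs1, starting at base -137), and in 1.05% of all 32851 promoters. The E-box lay in 7 of the 41 (17.1%, against 6.02% of all). These were those of Insig1 (base -101), Abca1, Dhcr7, Elovl5, Hsd17b7, Sc5d and Scap. The NF-Y box lay in 20 of the 41 (48.8%, against 33.8% of all), among them that of Idi1 at -45 and -14. A match describes the letters only.

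In the mevalonate pathway, which makes the isoprenoid units of sterols, Idi1 was the only gene of 6 measured that passed. Idi1 encodes isopentenyl diphosphate isomerase, which turns isopentenyl diphosphate into its reactive isomer. Its intensity was 2653.43, 3289.52 and 2844.72 on the GFP+ arrays, against 1213.73, 1202.6 and 1281.66 on the RFP+ arrays. Every GFP+ array lay at more than the brightest RFP+ array, and the gene was 2.35-fold higher in progenitors (log2 difference 1.23 ± 0.20, adjusted p = 6.65e-05). A second probe set of Idi1 gave nearly the same difference, 1.25.

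The other 5 genes of the pathway did not pass. Mvk, mevalonate kinase, averaged 614.8 ± 90.4 in GFP+ and 426.7 ± 17.6 in RFP+ (SD, n = 3 each) with no overlap between the groups, and its adjusted p of 0.0682 became 0.0367 with the replicate number as a block. Hmgcs1, the HMG-CoA synthase shown above with its sterol element, averaged 3164.0 ± 705.8 in GFP+ and 2740.8 ± 534.5 in RFP+ (log2 difference 0.20 ± 0.22), and the arrays overlapped. Fdps, which makes farnesyl diphosphate, had a log2 difference of 0.29 ± 0.20. Mvd, the mevalonate diphosphate decarboxylase, had 0.02 ± 0.22 and Pmvk, phosphomevalonate kinase, -0.31 ± 0.22.

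From squalene to cholesterol, 9 genes were measured, of which Fdft1 and Dhcr7 passed, in opposite directions. Fdft1, squalene synthase, commits farnesyl diphosphate to sterols. It had 4026.25, 4254.69 and 4003.69 on the GFP+ arrays, against 6153.4, 6912.87 and 6748.83 on the RFP+ arrays. It was lower in progenitors (log2 difference -0.69 ± 0.20, 1.61-fold, adjusted p = 0.0113), without overlap. Its second probe set had a log2 difference of -0.84. Leaving out both arrays numbered 1 ended the call (adjusted p = 0.0593, log2 difference -0.72).

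Dhcr7, the reductase that makes cholesterol from 7-dehydrocholesterol, had 1434.21, 1246.97 and 1482.94 on the GFP+ arrays, against 966.34, 870.33 and 932.71 on the RFP+ arrays. It was 1.49-fold higher in progenitors (log2 difference 0.58 ± 0.20, adjusted p = 0.0328) with no overlap. The call ended without GFP+ replicate 1 or 3 (adjusted p = 0.069 and 0.0764) and without RFP+ replicate 1, 2 or 3 (0.0759, 0.11 and 0.074). Without both arrays numbered 1 its adjusted p was 0.132, while the difference stayed between 0.53 and 0.65 over the alternatives.

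The 7 enzymes between them did not pass, and for 5 of them the 2 groups overlapped. Sqle, squalene epoxidase, averaged 2568.6 ± 255.6 in GFP+ and 2650.0 ± 286.1 in RFP+ (log2 difference -0.04 ± 0.20). Nsdhl and Hsd17b7, which act in the removal of methyl groups from the sterol rings, had log2 differences of -0.02 ± 0.22 and -0.06 ± 0.24. Lss, which closes the rings to lanosterol, had -0.21 ± 0.21, and Cyp51, which demethylates lanosterol, -0.20 ± 0.24. Sc5d, the desaturase that makes 7-dehydrocholesterol, averaged 2570.4 ± 165.1 in GFP+ and 2114.2 ± 149.6 in RFP+ (0.28 ± 0.20, no overlap).

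Ebp, the sterol isomerase, went the other way, at 157.3 ± 44.7 in GFP+ and 229.6 ± 7.6 in RFP+ (-0.54 ± 0.22, adjusted p = 0.071, no overlap). With the replicate number as a block its adjusted p was 0.0497. Its GFP+ mean lay under 211.3, the 95th percentile over olfactory receptor genes in GFP+, taken as a background level. Ebp was the only one of the 37 with a group mean under that level.

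Among the 5 genes that sense sterol and control synthesis, Srebf1 and Insig1 were higher in progenitors, Insig2 was higher in neurons, and Srebf2 and Scap did not pass. Srebf1 encodes SREBP-1, known above all as an activator of fatty acid genes. Its intensity was 1750.21, 1539.41 and 1601.67 on the GFP+ arrays, against 681.83, 719.59 and 636.47 on the RFP+ arrays. The groups lay far apart, and Srebf1 was 2.37-fold higher in progenitors (log2 difference 1.24 ± 0.20, adjusted p = 5.38e-05).

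Srebf2 encodes SREBP-2, the main activator of cholesterol genes. It had 1936.48, 3341.97 and 2536.1 on the GFP+ arrays, against 2283.82, 2977.0 and 2221.33 on the RFP+ arrays. The groups overlapped fully (log2 difference 0.04 ± 0.23, adjusted p = 0.91), and in both the array numbered 2 was the brightest. Scap had 1229.14, 1374.44 and 1098.45 on the GFP+ arrays, against 1071.39, 1145.5 and 780.1 on the RFP+ arrays, with a log2 difference of 0.31 ± 0.21 (adjusted p = 0.278).

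The Insig genes, whose proteins both retain Scap, differed in opposite directions. Insig1 had 2547.52, 2672.24 and 2310.84 on the GFP+ arrays, against 1613.85, 1641.01 and 1587.85 on the RFP+ arrays, and was 1.55-fold higher in progenitors (log2 difference 0.63 ± 0.20, adjusted p = 0.0194). Insig2 had 601.25, 778.85 and 894.68 on the GFP+ arrays, against 1300.9, 957.39 and 1262.02 on the RFP+ arrays, and was lower in progenitors (-0.62 ± 0.22, 1.54-fold, adjusted p = 0.0351). Neither pair of groups overlapped, though the brightest GFP+ and the dimmest RFP+ array of Insig2 lay close together. The Insig1 call ended without GFP+ replicate 2 (adjusted p = 0.054) or RFP+ replicate 1, 2 or 3 (0.0657, 0.0543 and 0.0571). The Insig2 call ended without GFP+ replicate 1 or 2 (adjusted p = 0.136 and 0.0565), without RFP+ replicate 1 or 3 (0.138 and 0.108) and with log2(intensity + 1) (0.0604). Without both arrays numbered 1 the adjusted p was 0.11 for Insig1 and 0.33 for Insig2, whose log2 difference was then -0.39.

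**Figure D2:**
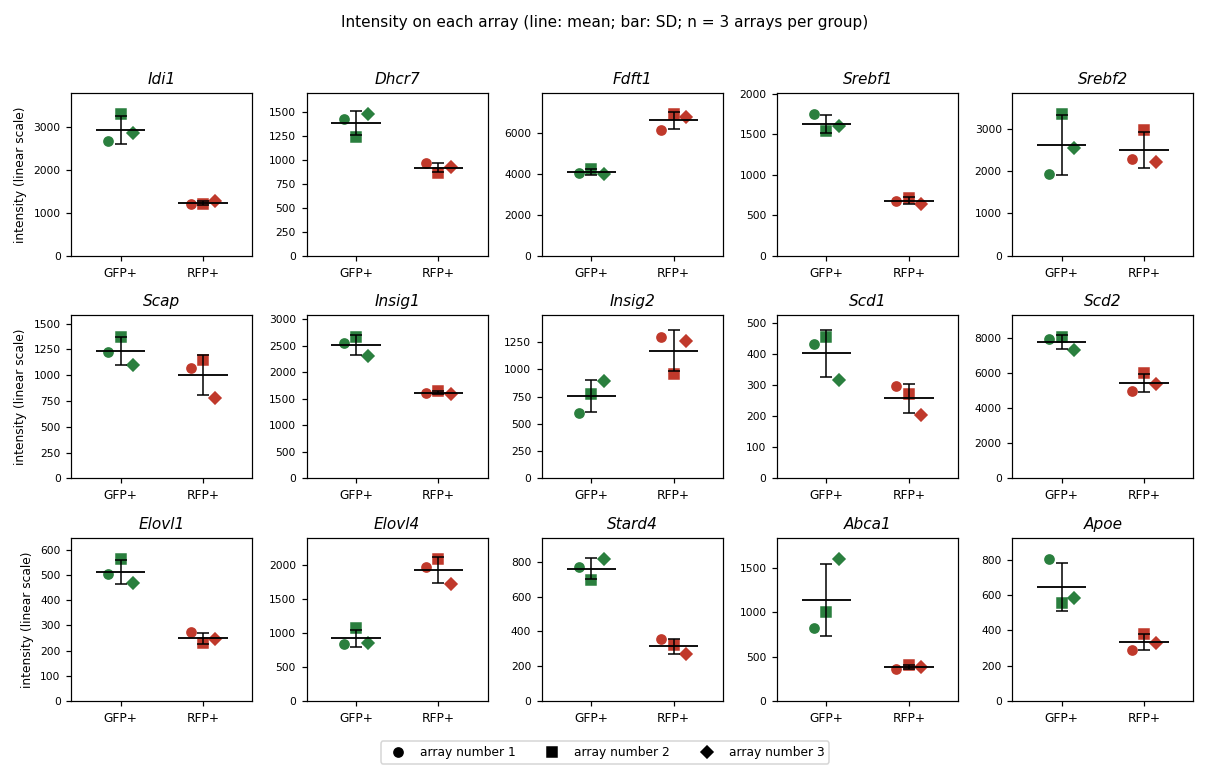
Intensity (vertical axis, linear scale from 0) of 15 genes on each of the 3 GFP+ and 3 RFP+ arrays, marked by the number in the array's title, with the mean as a line and the SD as a bar. For Idi1, Srebf1 and Stard4 the GFP+ points lie well above the RFP+ points, for Elovl4 and Fdft1 well below, and for Srebf2 and Scap they overlap.

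None of the 3 core genes of fatty acid synthesis passed. Acly, which splits citrate into cytosolic acetyl-CoA, came nearest. It had 5263.84, 4327.96 and 4744.63 on the GFP+ arrays, against 3264.51, 3413.05 and 3231.83 on the RFP+ arrays (log2 difference 0.53 ± 0.20, adjusted p = 0.0502), and did not overlap. With the replicate number as a block its adjusted p was 0.0288. Fasn, the fatty acid synthase, averaged 2660.2 ± 380.5 in GFP+ and 2271.6 ± 439.3 in RFP+ (0.23 ± 0.21). Acaca, the carboxylase that makes malonyl-CoA, averaged 1270.2 ± 331.3 in GFP+ and 1219.7 ± 180.0 in RFP+ (0.04 ± 0.22), and its second probe set had a difference of 0.07.

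Of the 4 desaturases, Scd1 passed (25%, where 13.7% of all genes passed with GFP+ higher). Scd2 and Fads1 also lay higher in every GFP+ array than in any RFP+ array. With Scd1 they made 75% of the desaturases, against 19.9% of all genes. Scd1 and Scd2 encode stearoyl-CoA desaturases, which place the first double bond in saturated fatty acids. Scd1 had 433.94, 457.32 and 317.32 on the GFP+ arrays, against 296.91, 272.01 and 204.87 on the RFP+ arrays (1.53-fold, log2 difference 0.61 ± 0.22, adjusted p = 0.0397). The dimmest GFP+ array was close to the brightest RFP+ array. The call ended with quantile normalization (adjusted p = 0.0508), median centring (0.0503) and log2(intensity + 1) (0.0625), without GFP+ replicate 1 or 2 (0.103 and 0.121) without RFP+ replicate 2 or 3 (0.0675 and 0.177) and without both arrays numbered 1 (0.118).

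Scd2 had 7915.35, 8061.48 and 7298.3 on the GFP+ arrays, against 4975.83, 5971.34 and 5358.57 on the RFP+ arrays (0.51 ± 0.20, adjusted p = 0.0554, or 0.029 with the replicate number as a block). Scd1 and Scd2 are closely related genes on chromosome 19, and whether the probes of each also bind RNA of the other was not tested. Fads1 and Fads2 encode the desaturases that make polyunsaturated fatty acids. Fads1 averaged 4190.4 ± 559.1 in GFP+ and 3100.0 ± 222.1 in RFP+ (0.43 ± 0.20, adjusted p = 0.118). With the replicate number as a block its adjusted p was 0.0542, which did not pass, and with a random block it was 0.0442. Fads2 averaged 5172.3 ± 818.3 in GFP+ and 5161.7 ± 346.4 in RFP+, with overlapping arrays.

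The elongases, which lengthen fatty acids beyond the product of Fasn, moved in both directions. Elovl1, which extends saturated and monounsaturated chains, had 503.98, 563.28 and 470.11 on the GFP+ arrays, against 272.79, 229.8 and 245.73 on the RFP+ arrays. It was 1.99-fold higher in progenitors (log2 difference 0.99 ± 0.20, adjusted p = 6.54e-04), without overlap.

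Elovl4, which makes the longest chains and is known from retina, skin and brain, had 833.79, 1071.46 and 862.52 on the GFP+ arrays, against 1972.03, 2091.61 and 1722.63 on the RFP+ arrays. It was lower in progenitors (log2 difference -1.06 ± 0.20, 2.08-fold, adjusted p = 4.53e-04), and no array of one group reached the other. Elovl1 and Elovl4 kept their calls under all 18 alternatives. Elovl2 and Elovl5, which act on polyunsaturated chains, had log2 differences of -0.34 ± 0.20 and 0.29 ± 0.20. Elovl6, which turns palmitate into stearate, had -0.27 ± 0.20. None of the 3 passed, and for Elovl2 and Elovl6 every RFP+ array lay above every GFP+ array. Acsl4, an acyl-CoA synthetase that prefers polyunsaturated fatty acids, averaged 346.9 ± 91.1 in GFP+ and 270.3 ± 16.9 in RFP+ (0.32 ± 0.21, adjusted p = 0.281).

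Sterol transport had the highest median log2 difference of the roles, 1.07. All 4 genes lay higher on every GFP+ array than on any RFP+ array (100%, against 19.9% of all genes). Of them, 3 passed (75%, where 13.7% of all genes passed with GFP+ higher). Stard4, a small protein that carries cholesterol between membranes inside the cell, had 769.46, 695.53 and 814.61 on the GFP+ arrays, against 355.28, 319.81 and 270.73 on the RFP+ arrays. It was 2.35-fold higher in progenitors (log2 difference 1.23 ± 0.20, adjusted p = 8.14e-05).

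Abca1, the transporter that loads cholesterol onto apolipoproteins at the cell surface, had 820.31, 1001.77 and 1601.71 on the GFP+ arrays, against 358.88, 410.11 and 379.27 on the RFP+ arrays. Its difference was the largest of the 37 genes, 2.79-fold (log2 difference 1.48 ± 0.23, adjusted p = 5.15e-05). The GFP+ arrays differed among themselves, and their order was that of the endothelial marker sums, 1967.6, 4655.5 and 6552.6 on replicates 1, 2 and 3. That order was not particular to Abca1: Cyp51, Nsdhl, Hsd17b7, Insig2, Acaca and Elovl6 also had it on the GFP+ arrays. On RFP+ replicates 1, 2 and 3 the endothelial sums were 707.6, 650.2 and 940.3, and Abca1 did not follow that order. The part of endothelial cells in the Abca1 level was not tested. Without GFP+ replicate 3 the log2 difference of Abca1 was 1.21, and without GFP+ replicate 1 it was 1.69.

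Apoe, the apolipoprotein of brain lipoproteins, had 804.32, 555.53 and 582.78 on the GFP+ arrays, against 290.24, 381.1 and 327.83 on the RFP+ arrays. It was 1.89-fold higher in progenitors (log2 difference 0.92 ± 0.21, adjusted p = 0.00249). Astrocytes and microglia are known to express Apoe. The astrocyte marker sums were 2819.2, 2171.0 and 1820.7 on GFP+ replicates 1, 2 and 3, against 1389.2 to 1702.6 in RFP+. Apoe and this sum were both highest on GFP+ replicate 1. Of the markers in the sum, S100b (1927.15, 1189.75 and 1022.59) and Gjb6 were highest there. Aldh1l1 (510.1, 601.65 and 507.56), Gfap and Aqp4 were highest on GFP+ replicate 2. Microglia had marker sums of 970.8 to 1474.9 in GFP+ and 1294.0 to 1631.9 in RFP+, and 4 of these 8 markers lay under the olfactory receptor level in both groups. The part of these cells in the Apoe level was not tested. Without both arrays numbered 1 the Apoe call ended (adjusted p = 0.0866, log2 difference 0.66). Abcg1, which passes cholesterol to lipoproteins, had 656.17, 920.5 and 866.01 on the GFP+ arrays, against 567.57, 620.13 and 471.4 on the RFP+ arrays (0.54 ± 0.21, adjusted p = 0.0603, or 0.0394 with the replicate number as a block).

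**Figure D3:**
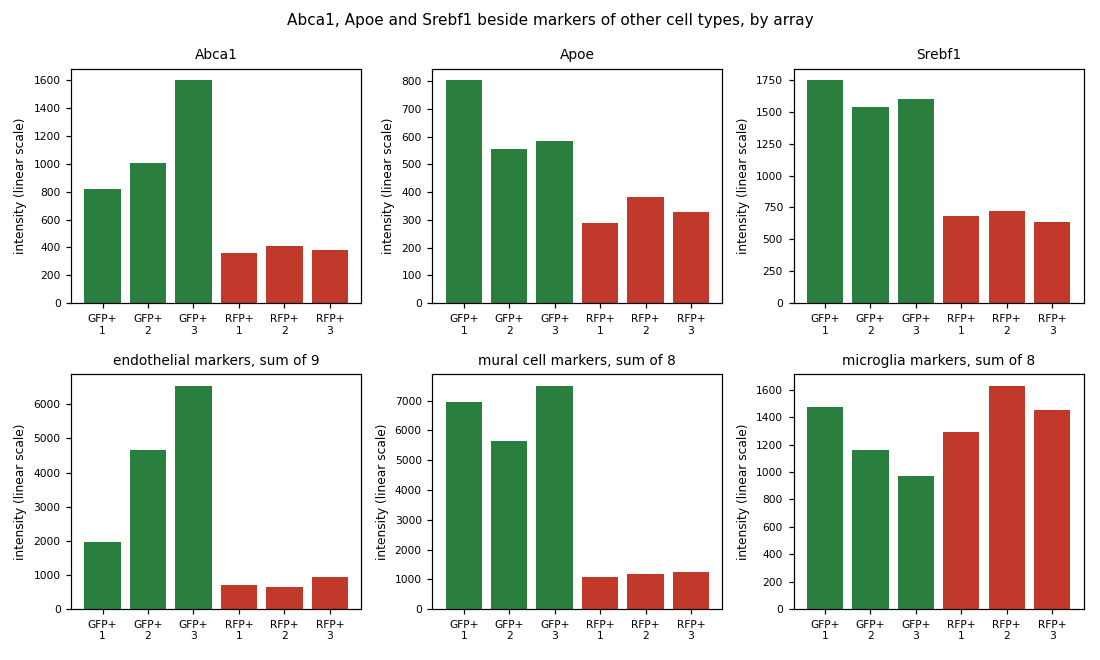
Intensity of Abca1, Apoe and Srebf1 and summed intensity of endothelial, mural cell and microglia markers (vertical axes, linear scale) on each of the 3 GFP+ and 3 RFP+ arrays. Over the GFP+ arrays endothelial sums run from 1967.6 to 6552.6, mural sums from 5648.3 to 7507.7 and microglia sums from 970.8 to 1474.9. Srebf1 runs from 1539.41 to 1750.21 on them. The part of these cells in the levels of Abca1, Apoe and Srebf1 was not tested.

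Within a group the genes did not vary alike, and part of that variation followed the number in the array titles. Of 15 measured enzymes of the mevalonate and sterol steps, 5 were brightest on the array numbered 3 in both groups (33.3%, against 18.3% of all genes): Hmgcs1, Sqle, Cyp51, Nsdhl and Hsd17b7. Cyp51 had 915.12, 917.06 and 1338.65 on the GFP+ arrays, and 1118.42, 927.67 and 1666.19 on the RFP+ arrays, so the spread within each group exceeded the difference between the means. Over all 37 genes, 8 were brightest on the arrays numbered 3 (21.6%) and 2 on those numbered 1 (5.41%, against 11.5% of all genes). Hmgcs1 had 2824.39, 2692.16 and 3975.45 on the GFP+ arrays, and 2561.32, 2319.12 and 3341.96 on the RFP+ arrays. Another 13 of the 37 genes were brightest on the array numbered 2 in both groups (35.1%, against 17.0% of all genes), among them Srebf2, Scap, Insig1, Fasn and Fads2. The sources used here do not say what these numbers mark, and the genes were grouped this way after their values were seen.

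**Figure D4:**
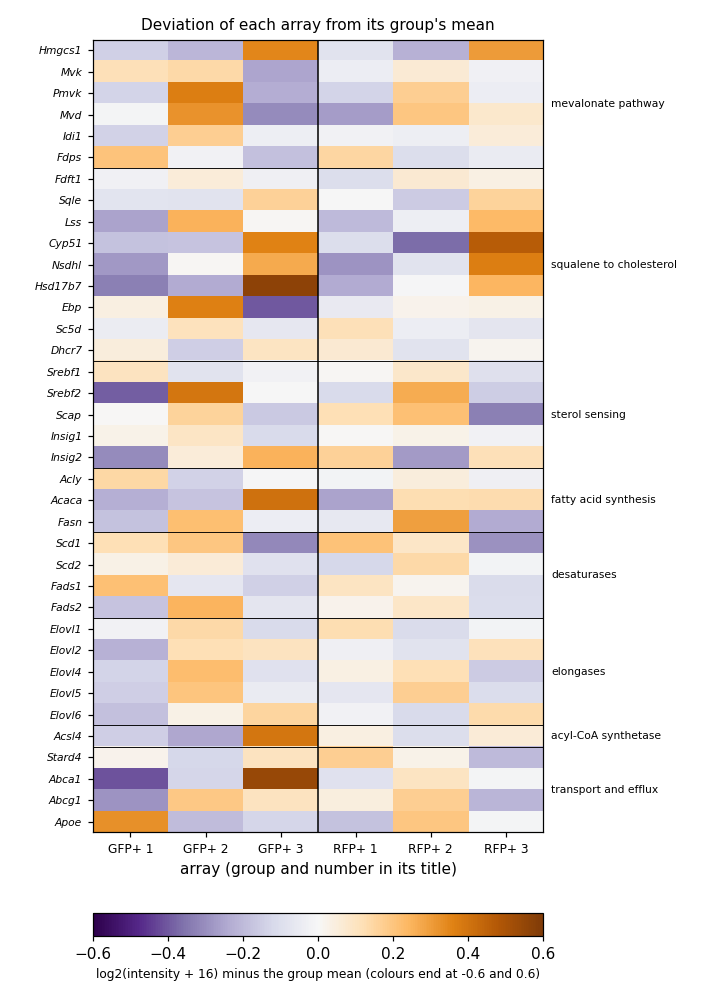
Deviation of each array (columns, GFP+ left, RFP+ right) from its group's mean in log2(intensity + 16) for the 37 genes (rows, by role). Hmgcs1, Cyp51, Nsdhl and Hsd17b7 are above the mean on both arrays numbered 3, and Srebf2 on both numbered 2.

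Other genes of the same pathways were 53 by list and 50 by measurement. Of these 50, 10 were higher in GFP+ progenitors (20.0%, against 13.7% of all genes). Another 15 were higher in RFP+ neurons (30%, against 16.2% of all genes). The median log2 difference of the 50 was -0.17. Among 21 sterol genes, 6 were higher in GFP+ (28.6%) and 5 in RFP+ (23.8%). Apod, a lipocalin that binds small lipids, had a log2 difference of 3.28 ± 0.27 (591.9 ± 250.2 in GFP+ and 42.4 ± 5.2 in RFP+, SD, n = 3 each), the RFP+ mean lying under the olfactory receptor level. Lbr, a sterol reductase of the inner nuclear membrane (0.98 ± 0.25), and the lipoprotein receptor gene Scarb1 (0.96 ± 0.20) followed. The Reelin and lipoprotein receptor gene Vldlr was lower in progenitors (-1.18 ± 0.20), as were Tm7sf2, the other reductase of the same step as Lbr (-0.87 ± 0.20), and Npc1, which exports cholesterol from lysosomes (-0.71 ± 0.21). The Npc1 call ended without GFP+ replicate 1 (adjusted p = 0.0538), without RFP+ replicate 1 (0.0569) and without both (0.159).

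Among 29 fatty acid genes, 4 were higher in GFP+ progenitors (13.8%, against 13.7% of all genes) and 10 in RFP+ neurons (34.5%, against 16.2% of all genes). Acsbg1, an acyl-CoA synthetase (2.81 ± 0.20), Fabp7, the fatty acid binding protein of radial glia (2.49 ± 0.21), and the fatty acid transporter gene Slc27a1 (0.78 ± 0.20) were higher in progenitors. Acsbg1 averaged 612.2 ± 30.9 in GFP+ and 73.4 ± 4.9 in RFP+, the RFP+ mean lying under the olfactory receptor level. Where a group mean lies under that level, as for Apod, Acsbg1 and Fabp3, the size of the difference is uncertain. Fabp7 averaged 9738.9 ± 1400.2 in GFP+ and 1712.9 ± 194.2 in RFP+ (SD, n = 3 each). Fabp3, another fatty acid binding protein (-2.34 ± 0.24), the thioesterase gene Acot7 (-1.51 ± 0.21) and Me1, malic enzyme, which supplies NADPH (-1.30 ± 0.20), were lower in progenitors. Fabp3 averaged 128.2 ± 31.1 in GFP+, under the olfactory receptor level, and 720.9 ± 185.3 in RFP+.

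**Figure D5:**
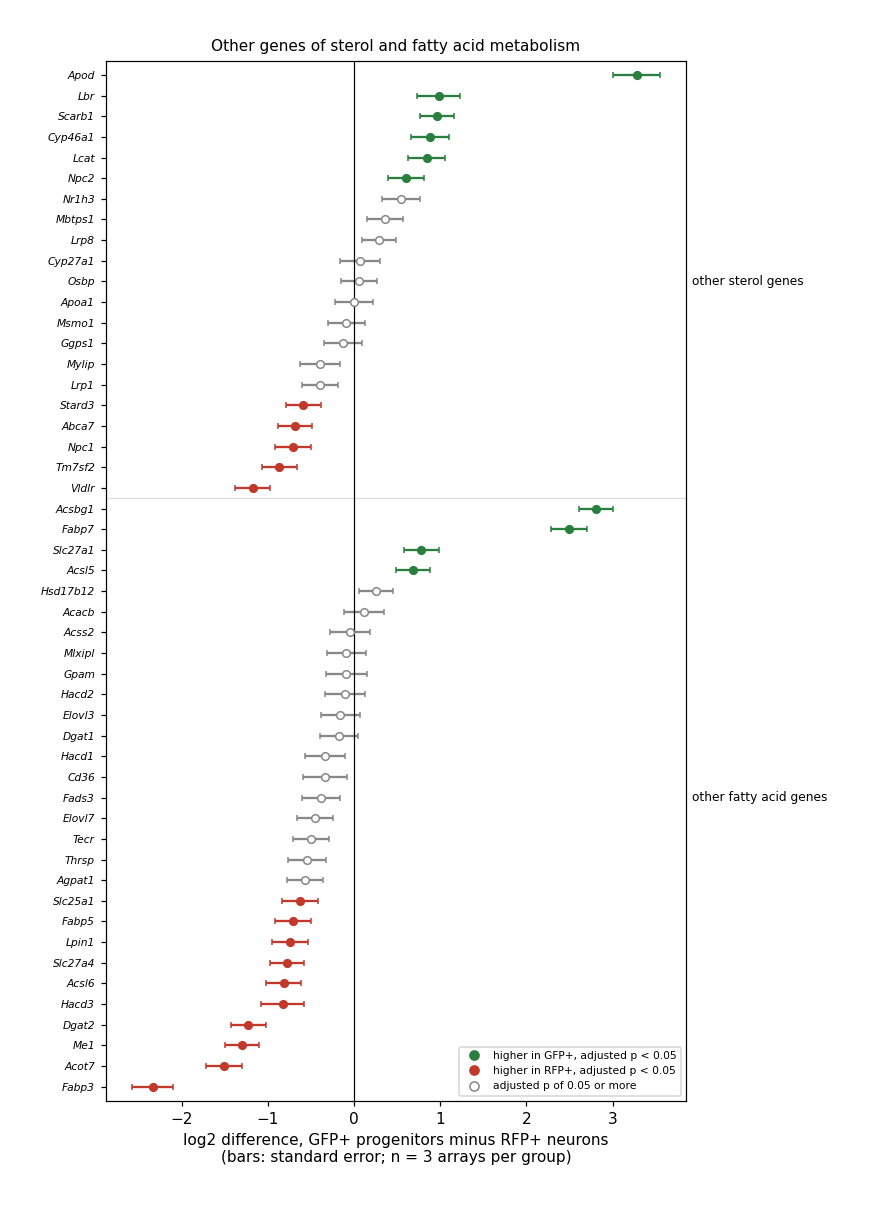
Log2 difference in intensity (GFP+ progenitors minus RFP+ neurons, horizontal axis) of 50 further genes of sterol and fatty acid metabolism, with bars for the standard error (3 arrays per group). Filled points passed an adjusted p of 0.05: 10 lie right of 0, among them Apod, Acsbg1 and Fabp7, and 15 lie left, among them Fabp3.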

How the data were processed

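Expression was measured on 6 Affymetrix whole-transcript arrays, 3 of GFP+ progenitors and 3 of RFP+ neurons, grouped by their titles. The values are the intensity of each probe set on a linear scale, as deposited by the authors. Per the submitters' processing notes they were made with the Affymetrix Expression Console, and its version, background correction, normalization and summarisation are not given in the sources used here. Array medians ran from 210.31 to 221.1. The number of arrays limits the precision.

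The table held 35557 probe sets, of which 21789 carried 1 gene symbol, 1621 several and 12147 were unnamed here. Per gene the probe set with the highest mean of log2(intensity + 16) was kept, giving 19938 genes, with no filter on dim genes. Of the single-gene probe sets 21698 matched RefSeq's gene table (GRCm38.p6) by Entrez ID. The difference GFP+ minus RFP+ was tested with limma 3.58.1 in R 4.3.3 (two-sided, lmFit and eBayes, which gave 15.5 prior degrees of freedom) over all genes, with Benjamini-Hochberg adjustment and a threshold of 0.05. The median SE was 0.215. The code was tested on simulated data. Tables were made with Python 3.11.15 and pandas 2.3.3, and figures with matplotlib 3.10.9. The 95th percentile of 1015 olfactory receptor genes (211.3 in GFP+, 206.3 in RFP+) served as a background level.

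The titles give both groups the numbers 1 to 3. Deviations from the group means, correlated across genes, were 0.204, 0.288 and 0.361 between same-numbered arrays of the 2 groups and -0.267 to 0.00422 between the others, so the numbers were taken to pair the arrays. The fit without the block remained the main test, and the blocked value is given where it changes a call.

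The members, the lists and the rules were chosen with earlier results of these data known. All 37 measured members are accounted for. Values on every array were to be given for members past the threshold with a log2 difference of at least 1 either way and for the 5 sensing genes, and those of other members were added after seeing them. Of the other pathway genes, the 3 with the largest passing difference each way in each of the 2 lists are named. The 18 alternatives were the replicate block (fixed or random), median centring, quantile normalization, filters that drop the 30% or 50% dimmest genes, offsets of 1 and 64, averaged probe sets, weights for arrays, robust moderation with an intensity trend, and leaving out each array or both arrays numbered 1.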

Additional observations from a re-analysis of the deposited data

How the results depend on the processing

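All 12 called genes kept their direction under the 18 alternatives. Idi1, Srebf1, Elovl1, Elovl4, Stard4 and Abca1 also stayed past the threshold under each, with adjusted p of up to 0.017, whereas Dhcr7, Insig1, Insig2 and Scd1 lost their calls on leaving out single arrays, and Fdft1 and Apoe without both arrays numbered 1. The number of the 37 genes higher in GFP+ was 9, and 13 with the replicate number as a block. It was 14 with that number as a random effect, 14 with an intensity trend and robust moderation, and 5 without both arrays numbered 1. Over all genes the number was 2740 in the main fit, and 3321, 3637, 3117 and 2001 in these settings in turn. Without the dimmest 50% of genes, 13 of the 35 members left were higher in GFP+, and 2191 of the 9969 genes left. Higher in RFP+ were 3 of these members and 2421 of these genes. The number higher in RFP+ was 3, and 4 with the replicate block (4045 of all genes), and 1 without both arrays numbered 1. That last setting leaves 2 arrays per group, and it gave 1847 of all genes (against 3233 with all arrays) and 7 of the other pathway genes (against 15) higher in RFP+. The replicate block added Mvk, Ebp, Acly, Scd2 and Abcg1 and changed no other call among the 37 genes. Fads1 passed with the random block (adjusted p = 0.0442) and with an intensity trend and robust moderation (0.0432). Leaving out 1 array gave 6 to 9 genes higher in GFP+ (2205 to 2546 of all genes). It gave 2 to 3 higher in RFP+ (2303 to 3041 of all genes).

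The genes that changed sign under some alternative were 8 that had not passed, with log2 differences between -0.20 and 0.04. With quantile normalization Mvd had -0.02, Nsdhl 0.04 and Fads2 0.06, with median centring Mvd had -0.02, with array weights Nsdhl had 0.04, and without both arrays numbered 1 Mvd had -0.11 and Fads2 0.09. Leaving out 1 array gave -0.14 to 0.17 for Mvd, -0.12 to 0.03 for Sqle, -0.39 to 0.03 for Cyp51, -0.16 to 0.17 for Nsdhl, -0.34 to 0.1 for Hsd17b7, -0.16 to 0.23 for Srebf2, -0.16 to 0.15 for Acaca and -0.13 to 0.08 for Fads2. The cause of these changes was not tested. Differences of the size seen for Mvk, Acly, Scd2 and Abcg1 lie at the limit of what 3 arrays per group resolve.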
